A study of Mus musculus with 8 samples.

Results

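The genes described here are components of basement membranes, the thin sheets of extracellular matrix that lie under epithelia and endothelia and around muscle fibres, fat cells and nerve fibres. A list of 32 gene names was fixed, covering the collagen IV chains, the laminin chains, the nidogens, the heparan sulfate proteoglycans and smaller associated proteins, and rows were taken whose gene name equals a listed name. Of the 32 names, 31 were found among the 20681 genes of the table, and all 31 passed the filter on low values; Lama1 was not analysed here. RNA was measured by poly-A sequencing of whole knee joints of mice, with 4 libraries in a control group and 4 in a group labelled as a knockout of Loxl2, which encodes lysyl oxidase-like 2, an enzyme that crosslinks collagens. Per the series' design text, all 8 joints came from Acan-Cre;Loxl2 fl/fl mice, so that both groups are described with the Cre and the floxed alleles. The control samples are called vehicle-treated there, and the libraries are named Vehicle_DMM_LOXL2wt and KO_DMM_LOXL2ko. DMM is not spelled out in the labels and usually stands for a surgical destabilisation of the medial meniscus. The agent given to the knockout samples, the age and sex of the mice and the time after any surgery are not stated in the labels. The Acan promoter is active in chondrocytes, so other cells of the joint, such as those of endothelium, muscle and fat, keep Loxl2 in this design. The labels do not say which replicates came from separate animals, so the p-values measure the spread between these libraries. Both groups are named here as labelled.

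In a basement membrane, laminins are heterotrimers of an alpha, a beta and a gamma chain that polymerise on the cell surface, and collagen IV trimers form a second network. Nidogens, perlecan (Hspg2) and agrin (Agrn) link these networks to each other and to cells, and integrins and dystroglycan are the main receptors. Lysyl oxidases and peroxidasin (Pxdn) crosslink the collagen IV network. In a knee, basement membranes surround blood vessels, muscle fibres, fat cells and Schwann cells, and chondrocytes lie in a pericellular matrix that holds some of the same proteins.

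Start-site sequences are shown, because the collagen IV genes are arranged in head-to-head pairs and because start sites were listed for several members that differed between the groups. The sequences are RefSeq's for GRCm38.p6, written 5′ to 3′, and capitals mark matches on either strand to the motifs searched, which were CCAAT (the NF-Y box), GGGCGG (the GC box), TATAAA (the TATA box), TGANTCA (the motif of AP-1) and CCGGAAGT (a motif of ETS factors). Matches that overlap each other were each counted. Col4a1 and Col4a2 are transcribed away from each other on chromosome 8, and the annotated genes share their first 22 bases at chr8:11312805-11312826, shown on the plus strand, which is the strand of Col4a2.

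Col4a1 and Col4a2 shared first bases: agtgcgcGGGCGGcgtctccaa

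Col4a4 and Col4a3 are likewise divergent on chromosome 1, with 71 bases between their annotated ends at chr1:82586850-82586920, shown on the plus strand. Col4a6 and Col4a5 on chromosome X lie 1308 bases apart.

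Col4a4 to Col4a3 gap: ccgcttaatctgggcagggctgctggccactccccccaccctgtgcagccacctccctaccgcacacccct

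Of the 5 members called between the groups below, Agrn, Lamb1 and Egflam had an entry in the table of start sites. The bases before the start and outside annotated exons are chr4:156197489-156197738 on the minus strand for Agrn, chr12:31265043-31265233 on the plus strand for Lamb1, and chr15:7398396-7398645 on the minus strand for Egflam.

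Agrn upstream: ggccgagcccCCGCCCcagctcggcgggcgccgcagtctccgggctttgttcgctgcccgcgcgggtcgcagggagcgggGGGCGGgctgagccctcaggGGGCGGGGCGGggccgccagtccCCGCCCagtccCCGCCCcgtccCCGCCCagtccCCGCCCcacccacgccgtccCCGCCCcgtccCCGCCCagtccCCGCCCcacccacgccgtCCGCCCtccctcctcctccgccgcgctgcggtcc

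Lamb1 upstream: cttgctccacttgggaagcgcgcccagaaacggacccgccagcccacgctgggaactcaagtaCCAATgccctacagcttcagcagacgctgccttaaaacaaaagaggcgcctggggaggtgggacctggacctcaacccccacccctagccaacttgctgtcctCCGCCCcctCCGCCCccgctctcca

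Egflam upstream: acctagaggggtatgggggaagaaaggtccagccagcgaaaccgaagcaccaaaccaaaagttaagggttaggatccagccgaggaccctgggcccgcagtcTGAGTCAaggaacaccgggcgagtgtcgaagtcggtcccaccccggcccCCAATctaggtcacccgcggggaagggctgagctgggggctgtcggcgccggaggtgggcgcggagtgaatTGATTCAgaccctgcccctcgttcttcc

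The stretch before Agrn held GGGCGG or its reverse complement at 12 places and CCAAT at 0. Lamb1 held GGGCGG at 2 places and CCAAT at 1, while Egflam, the member that fell, held GGGCGG at 0, CCAAT at 1 and TGANTCA at 2. Upstream sequence of 250 bases was listed for 22 members. GGGCGG was present in 13 of them (59.1%) and in 33.0% of all 27025 genes with such a sequence, non-coding genes included, and CCAAT in 10 (45.5%) and 34.5%. TATAAA was in 0 of the 22 and in 13.0% of all genes, TGANTCA in 1 and in 6.9% of all genes, and CCGGAAGT in 0 and in 2.9% of all genes. The median GC content of these stretches was 62.4% for the members and 52.0% for all genes, and GGGCGG is itself made of G and C alone. These matches describe letters only.

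The targeted gene was examined first. The normalised read count of Loxl2, that is the read count divided by a size factor for its library, was 282, 349, 1135 and 311 in the control libraries, in the order of replicates 1 to 4, against 893, 1468.5, 960.3 and 1518 in those labelled knockout. Control replicates 1, 2 and 4 lay below every library labelled knockout, and control replicate 3 lay above 2 of them, so that Loxl2 was higher, not lower, under the knockout label. Its log2 difference was 1.44 (SE 0.40, limma adjusted p = 0.0294), with an exact permutation p of 0.0857, and directions below are therefore those of the labels. Whether the labels are exchanged, whether the counted reads lie outside the deleted part of the gene, or whether they come from cells that keep Loxl2, was not tested. Exchanged labels would reverse what those directions mean, whereas counted reads outside the deleted part or from such cells would leave them as labelled. When 1 library was left out, limma no longer called Loxl2 in 5 of 8 fits, those without control 1 (adjusted p = 0.0666), control 2 (0.0798), control 4 (0.0767), knockout 2 (0.0745) or knockout 4 (0.0849). Neither edgeR (adjusted p = 0.0669) nor DESeq2 (adjusted p = 0.0659) called it. The libraries held 13991000 to 17411617 reads assigned to genes. A log2 difference is the mean of the knockout-labelled group minus that of the controls on the log2(value + 1) scale, given with the standard error (SE) of the limma fit, and a gene is called at a limma adjusted p under 0.05 over the 14949 genes tested.

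Most basement membrane genes did not pass the test between the groups, which does not show that their values were equal. Of the 31 members, 5 (16.1%) were called, Smoc2, Lama3, Agrn and Lamb1 higher and Egflam lower in the group labelled knockout, whereas 23.2% of all tested genes were called (11.6% higher and 11.6% lower). The groups did not overlap for 3 members with higher and 1 with lower values, against 25.1% of all tested genes in either direction. The estimates of 20 members were above 0 and those of 11 below 0, with a median of 0.35 against 0.00 for all genes, and 18 members lay within 0.5 of 0. The member SEs had a median of 0.23, against 0.17 for all genes. An unadjusted limma p under 0.05 was found for 12 of the 31 members, the 5 called among them, and for 5741 of the 14949 genes tested. Of the members not called, 6 had a limma adjusted p under 0.1. The counts moved when single libraries were left out. Without control replicate 3, 7 members were called higher, and without knockout replicate 1, 8 were, while the number lower ranged from 0 to 2 over the fits that left out 1 library. Another scale moved them too. When size factors were taken from genes outside both the skeletal muscle list and the 50 highest genes, the median of all genes moved to 0.15, 9 members were called higher and 0 lower, and 78.0% of all calls were higher (2732 against 772), compared with an even split (1732 against 1729) under the deposited scaling.

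**Figure D1:**
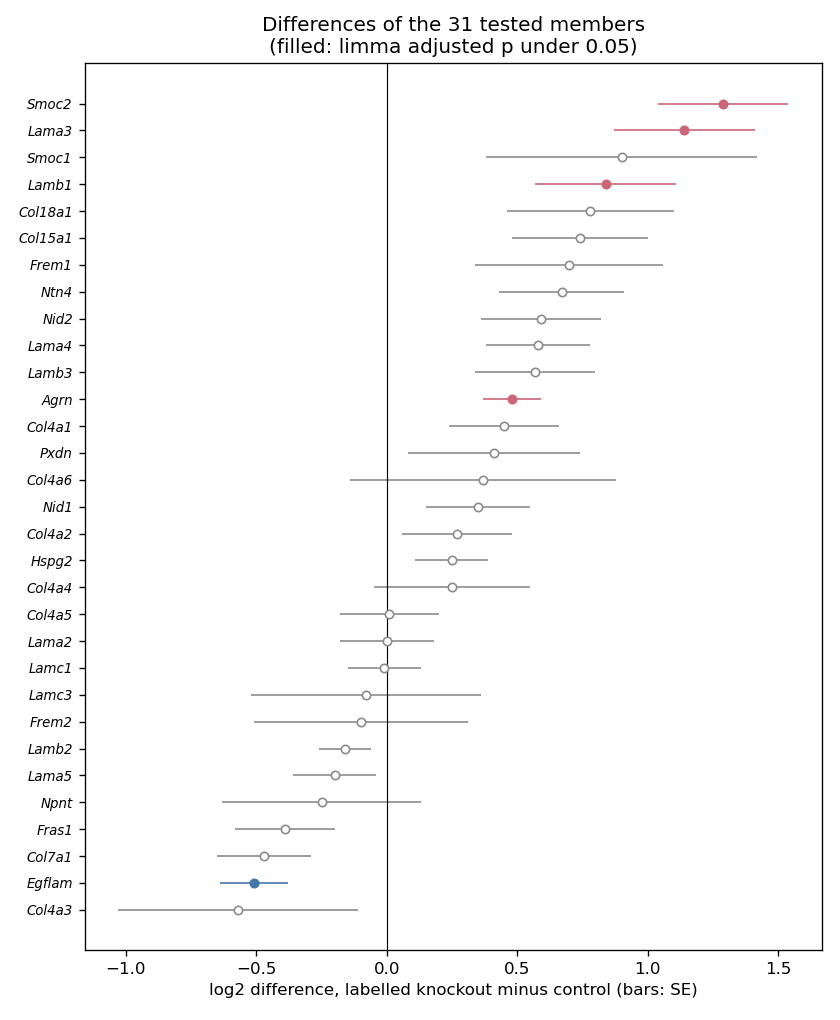
Log2 difference, knockout-labelled minus control (x axis), for the 31 members (y axis, in order of the estimate), with bars of 1 SE from the limma fit. Filled points mark the 5 members with an adjusted p under 0.05, Smoc2 at 1.29, Lama3 at 1.14, Lamb1 at 0.84 and Agrn at 0.48 above 0 and Egflam at -0.51 below it, and open points the other 26.

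The collagen IV genes encode the chains of the network-forming collagen, Col4a1 and Col4a2 those found in nearly all basement membranes and Col4a3 to Col4a6 those of a few specialised ones such as the glomerulus. Of the 6 genes, 0 were called, by limma or by edgeR or DESeq2 on the recovered reads, and 0 had an unadjusted limma p under 0.05. Per kilobase of annotated exon, Col4a2 had a normalised level of 329 ± 62.7 and Col4a1 of 263 ± 39.7 in the control group (SD, n = 4), and the other 4 chains had 6.3 ± 0.537 (Col4a5), 3.07 ± 1.32 (Col4a3), 2.16 ± 0.734 (Col4a4) and 1.28 ± 0.69 (Col4a6). Per kilobase Col4a2 lay above Col4a1 in every control library, although the SD ranges of their levels overlapped, and so did those of Col4a3 with Col4a4 and of Col4a4 with Col4a6. The normalised read count of Col4a1 was 1889.5, 1854, 2395 and 1719 in the controls, replicates 1 to 4 in order as throughout, against 1700.4, 3526, 2727 and 3074 under the knockout label. Knockout replicates 2, 3 and 4 lay above every control library and knockout replicate 1 below all of them, and the difference was 0.45 (SE 0.21, limma adjusted p = 0.136). Without knockout replicate 1 Col4a1 was called, with a difference of 0.67 (limma adjusted p = 0.0188). Col4a2 showed the same order of knockout libraries, with 2119, 2056, 2758 and 1777 in the controls against 1723, 3359, 2559 and 3068.5 (log2 difference 0.27, SE 0.21, limma adjusted p = 0.359). Of the minor chains, Col4a5 had 38.4 to 46.5 normalised reads in the controls against 37.6 to 48.9 (log2 difference 0.01, SE 0.19, limma adjusted p = 0.972). Col4a3 ranged from 18.4 to 45.8 in the controls against 10.3 to 42.4 (log2 difference -0.57, limma adjusted p = 0.388), Col4a4 from 16.2 to 32.9 against 21.9 to 33.4 (0.25, limma adjusted p = 0.58), and Col4a6 from 3.3 to 15.1 against 7.9 to 18.8 (0.37, limma adjusted p = 0.629), so at these counts only large differences were detectable. Use of strand in the counting is not stated, and Col4a1 and Col4a2 overlap each other by their first bases and each also overlaps a predicted gene on the opposite strand.

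**Figure D2:**
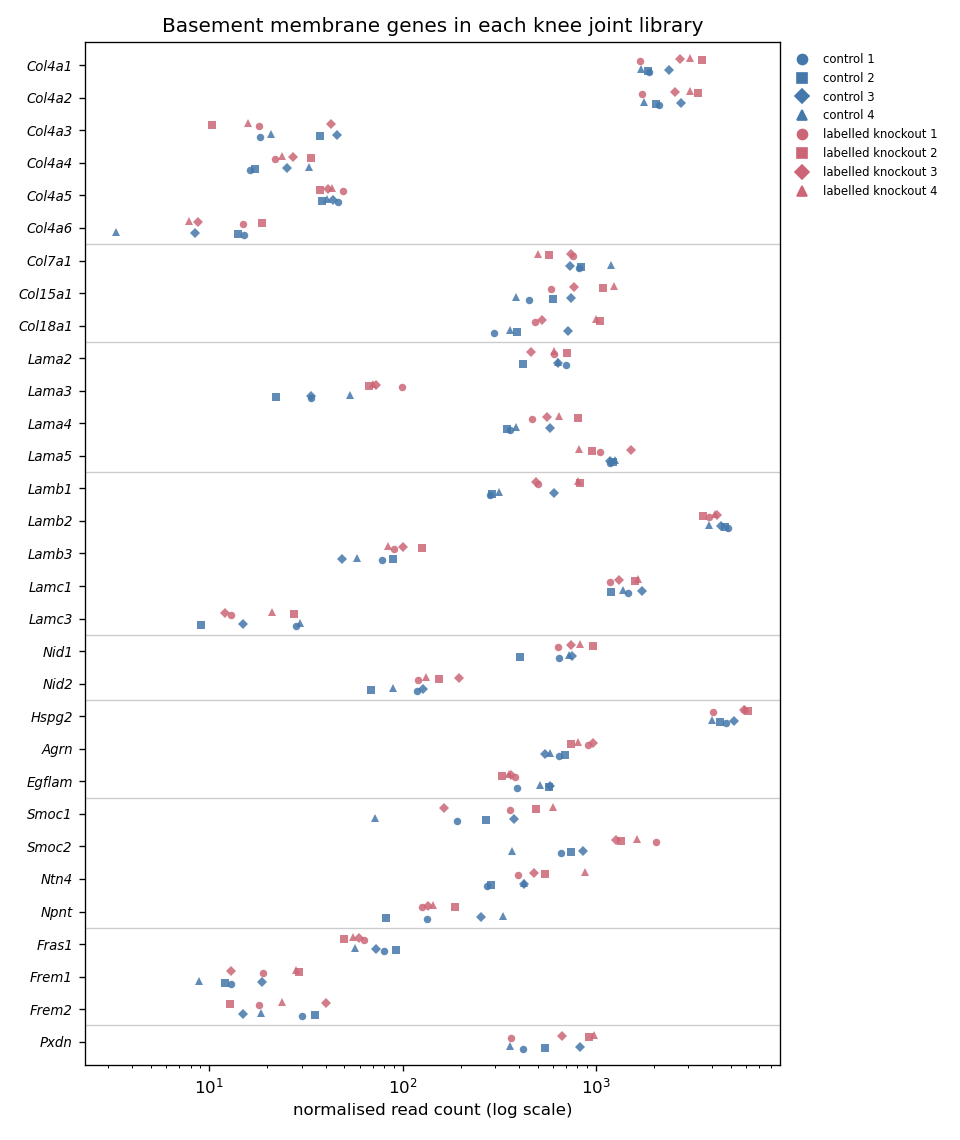
Normalised read count (x axis, log scale) of each of the 31 members (y axis, lines separate the roles) in the 4 control libraries and the 4 labelled knockout, 1 point per library, with the shape giving the replicate number. The groups overlap for all members except Smoc2, Lama3 and Agrn, which are higher under the knockout label, and Egflam, which is lower.

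A ratio of 2 genes of the same library does not depend on how the library was scaled, and 12 ratios of related members were compared. The ratio of Col4a2 to Col4a1 was the one that separated the groups. Its log2 value was 0.17, 0.15, 0.20 and 0.05 in the controls against 0.02, -0.07, -0.09 and 0.00 under the knockout label. Every control library thus held relatively more Col4a2 reads than any library labelled knockout, although the shift of -0.18 was small (exact two-sided permutation p = 0.0286, the smallest that 70 assignments allow, and 0.257 after adjustment over the 12 ratios). With that smallest p, 1 separated ratio among 12 could not reach an adjusted p under 0.05, so the adjusted value does not decide on this shift. Counting error alone came to a log2 SE of at most 0.05 per library for this ratio, each gene having at least 1569 reads. The groups stayed apart at pseudocounts of 0.1 and 5. For the other 11 ratios the groups overlapped. Among these, the ratio of Lamb1 to Lamb2 moved from -3.63 ± 0.55 to -2.63 ± 0.47 (SD, n = 4, exact permutation p = 0.0857), that of Lama4 to Lama2 from -0.53 ± 0.39 to 0.05 ± 0.29 (exact permutation p = 0.0857), and that of Lama5 to Lama4 from 1.57 ± 0.37 to 0.80 ± 0.60 (exact permutation p = 0.0857), each with an adjusted p of 0.257. Without control replicate 3 the groups were separate for 3 of the 12 ratios, and without knockout replicate 1 for 2. Exact adjusted p-values of the remaining 8 ratios were 0.549 to 0.886.

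**Figure D3:**
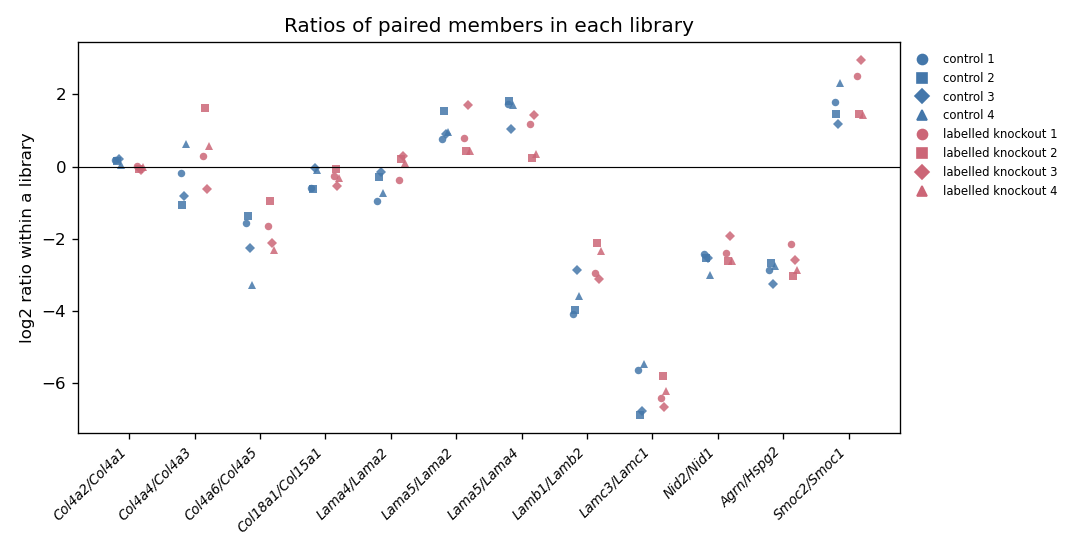
Log2 ratio of 2 members within a library (y axis) for 12 pairs (x axis), with 1 point per library and the replicate number given by the shape. The Col4a2 to Col4a1 points form narrow groups that do not overlap, with means of 0.14 for controls and -0.04 for the knockout label, whereas the points of the other 11 pairs overlap.

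Collagens XV and XVIII, which carry glycosaminoglycan chains and whose C-terminal fragments include endostatin, had larger estimates than collagen IV but did not pass the test. Col15a1 had a normalised read count of 449, 603, 739 and 387 in the controls against 585, 1090.5, 771 and 1234 under the knockout label (log2 difference 0.74, SE 0.26, limma adjusted p = 0.0634). Col18a1 had 298.5, 393, 718 and 359 in the controls against 486, 1045, 527 and 998 (log2 difference 0.78, SE 0.32, limma adjusted p = 0.101). In both genes knockout replicates 2 and 4 were the highest of the 8 libraries and control replicate 3 was the highest control, above knockout replicate 1. Without control replicate 3 both were called, Col15a1 with 0.90 (limma adjusted p = 0.0343) and Col18a1 with 1.05 (limma adjusted p = 0.0284), and without knockout replicate 1 Col15a1 was called with 0.94 (limma adjusted p = 0.0330). DESeq2 called both on all libraries (adjusted p = 0.0179 and 0.0458). The count of Col18a1 is uncertain where strand was not used, since Slc19a1 overlaps it on the opposite strand. Col7a1, the anchoring fibril collagen of skin, had 813, 838, 734 and 1198 in the controls against 759, 569.6, 739.5 and 504 under the knockout label, a difference of -0.47 (SE 0.18, limma adjusted p = 0.0792) with the highest value in control replicate 4.

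Among the laminin alpha chains, which carry most of the receptor binding sites, Lama3 rose and the more abundant chains did not pass the test. Per kilobase the control levels were 107 ± 2.84 for Lama5, 36.7 ± 7.6 for Lama2, 34.6 ± 9.13 for Lama4 and 3.33 ± 1.22 for Lama3 (SD, n = 4), so Lama3 was the lowest of the 4, and Lama2 and Lama4 lay within their spread. Lama3 (chromosome 18, 12333819 to 12583013) encodes an alpha chain known from epithelia, and its normalised read count was 33.5, 22.2, 33.6 and 53.7 in the controls against 99.7, 66.7, 72.9 and 70.4 under the knockout label. Each library labelled knockout lay above every control library, and the gene rose 2.21-fold (log2 difference 1.14, SE 0.27, limma adjusted p = 0.0176, exact permutation p = 0.0286). The call was kept in each of the 8 fits that left out 1 library. Lamb3, a beta chain also known from epithelia, did not pass the test, with 77.9, 88.8, 48.6 and 58.1 in the controls against 89.8, 127, 100 and 84.5 (log2 difference 0.57, SE 0.23, limma adjusted p = 0.0939), and it lies over Hsd11b1 and G0s2 on the opposite strand. Epithelial markers were scarce. Of the 8 on that list, 3 (Krt5, Krt14 and Krt15) were not analysed here, and Epcam, Cdh1 and Dsp did not pass the filter. Epcam, a surface marker of epithelia, was at 5.4, 0.0, 0.0 and 1.1 in the controls against 6.0, 15.4, 6.5 and 7.9, so at these few reads its groups did not overlap either, with the higher values under the knockout label. Krt10 was not called (0.12, limma adjusted p = 0.793), and Trp63, which muscle can also express, fell by 0.65 on the log2 scale (limma adjusted p = 0.0121). The summed value of the list was 220 to 267 in the controls against 176 to 239. Most of it was Trp63, at 174 to 214 in the controls against 103 to 143, so the sum says little about the other markers. Krt10, the next highest, ranged from 34.6 to 46.4 in the controls against 22.9 to 57.2. The part of epithelial cells in the rise of Lama3 was not tested.

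Lama4, the alpha chain of vessel and fat cell laminin, had a normalised read count of 358, 345, 580.4 and 384.5 in the controls against 469, 812, 561 and 647 (log2 difference 0.58, SE 0.20, limma adjusted p = 0.0614). Control replicate 3 lay above knockout replicates 1 and 3, and without it Lama4 was called with a difference of 0.75 (limma adjusted p = 0.0165), as it was without knockout replicate 1 (0.71, limma adjusted p = 0.0437). Lama2, the chain of the sheath around muscle fibres, whose loss causes a congenital muscular dystrophy, had 704, 419.9, 638 and 639 in the controls against 607, 706, 463 and 605, a log2 difference of 0.00 (SE 0.18, limma adjusted p = 0.996). Lama5, the most abundant alpha chain, was tightly grouped in the control libraries, at 1189, 1231.5, 1185 and 1251, and more widely spread under the knockout label, at 1054, 953, 1520.3 and 822, where replicate 3 was the highest (log2 difference -0.20, SE 0.16, limma adjusted p = 0.399). Without that library Lama5 was called lower, with -0.37 (limma adjusted p = 0.0254).

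Of the beta and gamma chains, which complete every laminin trimer, Lamb1 was called higher and the others were not called. Lamb1 (chromosome 12, 31265234 to 31329644) had a normalised read count of 283, 292, 610.3 and 317 in the controls against 501, 824.5, 491.5 and 811 under the knockout label. Control replicate 3 stood apart from the other controls and lay above knockout replicates 1 and 3, so the groups overlapped. The difference was 0.84 (SE 0.27, limma adjusted p = 0.049) with an exact permutation p of 0.0857. This call was marginal, since edgeR did not make it (adjusted p = 0.0616), and leaving out 1 library ended it for control 1 (limma adjusted p = 0.106), control 2 (0.125), control 4 (0.109), knockout 1 (0.0542), knockout 2 (0.119) and knockout 4 (0.132). Lamb2, the beta chain of the neuromuscular synapse, the glomerulus and arteries, was the most abundant laminin chain, with a control level of 728 ± 69.4 per kilobase against 174 ± 27.1 for Lamc1 and 37.9 ± 15.9 for Lamb1 (SD, n = 4). Its normalised read count was 4799, 4628, 4453 and 3832 in the controls against 3844, 3594, 4251 and 4147 (log2 difference -0.16, SE 0.10, limma adjusted p = 0.252). Lamc1, the gamma chain of nearly all laminins, had 1458, 1200.2, 1738.5 and 1376 in the controls against 1187, 1600.2, 1310.4 and 1651 (log2 difference -0.01, SE 0.14, limma adjusted p = 0.978). Lamc3 had at most 29.6 normalised reads in any library, and its difference was -0.08 (SE 0.44, limma adjusted p = 0.908).

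The nidogens, which bind laminin gamma chains and collagen IV, had estimates above 0 that did not pass the test. Nid1 had a normalised read count of 645, 404, 749.6 and 725 in the controls against 633, 960.5, 745 and 830.1 (log2 difference 0.35, SE 0.20, limma adjusted p = 0.224). Nid2 had 119, 68.6, 127 and 88.7 in the controls against 119.7, 154, 196 and 133 (log2 difference 0.59, SE 0.23, limma adjusted p = 0.0873), with control replicate 3 above knockout replicate 1, and it overlaps Rtraf on the opposite strand.

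Among the proteoglycans and the laminin G domain protein pikachurin, agrin rose, pikachurin fell and perlecan was not called. Agrn (chromosome 4, 156165290 to 156197488), which encodes agrin, a heparan sulfate proteoglycan that binds laminin and dystroglycan and organises the neuromuscular synapse, had a normalised read count of 642.5, 688, 542 and 582 in the controls against 908.5, 747.5, 966 and 811 under the knockout label. The groups did not overlap, and Agrn rose 1.4-fold (log2 difference 0.48, SE 0.11, limma adjusted p = 0.0153, exact permutation p = 0.0286). It was called in 17 of 19 alternative fits, among them each that left out 1 library. Egflam (chromosome 15, 7206120 to 7398395), which encodes pikachurin, a dystroglycan ligand known from the photoreceptor synapse, had 389, 574, 580.4 and 515 in the controls against 382, 327, 363 and 355. Control replicate 1 was close to the libraries labelled knockout, but the groups did not overlap, and Egflam fell by 0.51 on the log2 scale (SE 0.13, limma adjusted p = 0.0236, exact permutation p = 0.0286). Leaving out control 2 (limma adjusted p = 0.0692), control 4 (0.0555), knockout 2 (0.0605) or knockout 4 (0.0607) ended the call, as it did when the libraries were scaled on non-muscle genes (-0.36, limma adjusted p = 0.0701). Skeletal muscle markers moved the same way as Egflam. Of the 16 on that list, 9 were called lower and 0 higher, whereas 11.6% of all tested genes were called in each direction. The list had a median log2 difference of -0.74 and a summed value of 2520000 to 2710000 in the controls against 1200000 to 1730000 under the knockout label. Their part in the fall of Egflam was not tested. Hspg2, which encodes perlecan, had 4721, 4386, 5181 and 3969.6 in the controls against 4035, 6148, 5860.5 and 5935 (log2 difference 0.25, SE 0.14, limma adjusted p = 0.223), with knockout replicates 2, 3 and 4 above every control library and knockout replicate 1 below all but control replicate 4. Without knockout replicate 1 it was called with 0.40 (limma adjusted p = 0.0383).

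Smoc2 had the largest rise of the members. It encodes a calcium-binding matricellular protein related to Sparc, and its normalised read count (chromosome 17, 14279506 to 14404790) was 661, 746, 855 and 368 in the controls against 2036.5, 1346, 1265 and 1623 under the knockout label. The lowest library labelled knockout lay well above the highest control library, control replicate 3, and the rise was 2.45-fold (log2 difference 1.29, SE 0.25, limma adjusted p = 0.00875, exact permutation p = 0.0286). It was called in 18 of 19 alternative fits, the exception being the fit with a score of muscle genes added, which called 0 of all genes. Its paralogue Smoc1, which takes part in joint and eye development, was more variable, with 191, 268.5, 375 and 72.3 in the controls against 358, 489, 163 and 602 (log2 difference 0.90, SE 0.52, limma adjusted p = 0.227), and the ratio of Smoc2 to Smoc1 did not separate the groups (exact permutation p = 0.429). Ntn4, a netrin that binds laminin gamma chains and disrupts laminin networks, had 274, 286, 422.5 and 423 in the controls against 396, 546, 481 and 875 (log2 difference 0.67, SE 0.24, limma adjusted p = 0.0709), with its highest value in knockout replicate 4. It was called without knockout replicate 1 (0.83, limma adjusted p = 0.0467). Npnt, which encodes nephronectin, a ligand of the integrin with the Itga8 chain, had 133, 81.8, 253 and 331 in the controls against 127, 186, 136 and 144 (log2 difference -0.25, SE 0.38, limma adjusted p = 0.669).

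**Figure D4:**
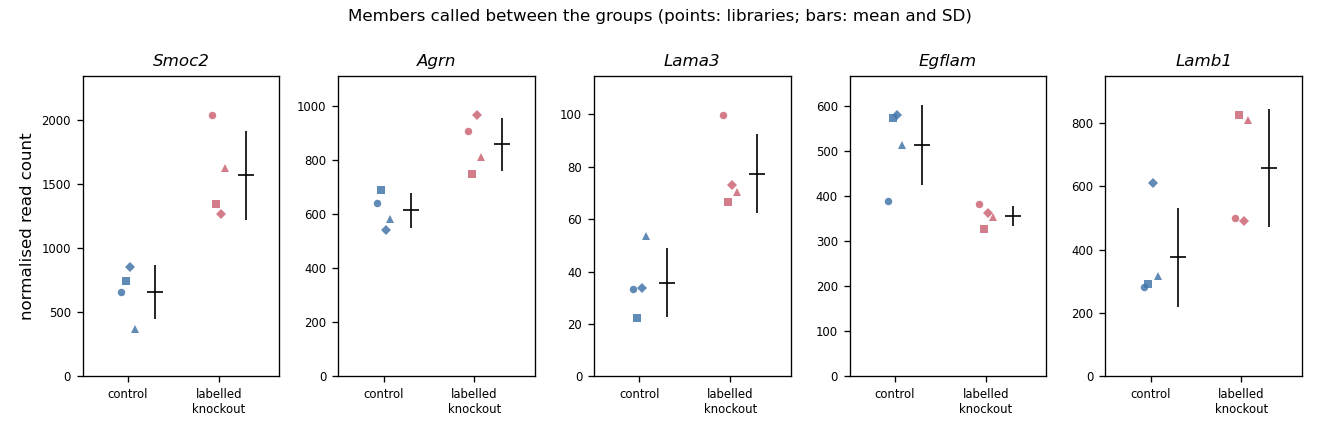
Normalised read count (y axis, from 0) of the 5 called members in the control libraries and those labelled knockout (x axis), 1 point per library with circles, squares, diamonds and triangles for replicates 1 to 4, and the mean with its SD beside them. The Lamb1 panel shows control replicate 3 at 610, above 2 of the libraries labelled knockout, and in the other 4 panels the groups do not overlap.

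The Fraser complex genes Fras1, Frem1 and Frem2 encode large proteins that anchor the epidermis to the dermis in development, and they were low in these joints, at 4.27 ± 0.845, 0.94 ± 0.295 and 1.87 ± 0.724 normalised reads per kilobase in the control group (SD, n = 4). Of the 3, 0 were called by limma, edgeR or DESeq2, and 0 had an unadjusted limma p under 0.05, with log2 differences of -0.39 for Fras1 (limma adjusted p = 0.17), 0.70 for Frem1 (0.185) and -0.10 for Frem2 (0.879). Pxdn, the peroxidase that forms sulfilimine crosslinks in collagen IV, had a normalised read count of 421, 548, 828 and 359 in the controls against 363, 923, 664.5 and 973 (log2 difference 0.41, SE 0.33, limma adjusted p = 0.392). Its control replicate 3 exceeded knockout replicates 1 and 3, the pattern also seen in Lamb1 and Lama4.

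Variation within the groups followed particular libraries. Control replicate 3 was the highest control library for 16 of the 31 members, and knockout replicate 2 was the highest of its group for 14 and of all libraries for 12. Knockout replicate 1 was the lowest of its group for 13. Summed over the 31 members, the normalised read counts came to 20994 to 26791 in the control libraries, highest in replicate 3, and to 22680.0, 30316, 27179 and 30216 in knockout replicates 1 to 4. Knockout replicate 1 thus lay within the range of the control libraries, and control replicate 3 close to knockout replicate 3.

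Genes that act on basement membranes were counted in the same way. In a list of 15 receptors, 3 were called higher and 1 lower, with a median log2 difference of 0.14. That is close to the 23.2% of all tested genes called in either direction. The syndecan genes Sdc1 (295 ± 144 to 974 ± 179.7 normalised reads, SD, n = 4, log2 difference 1.83, SE 0.31, limma adjusted p = 0.00605) and Sdc4 (log2 difference 0.40, SE 0.10, limma adjusted p = 0.0201) rose. Unc5b, a netrin receptor named after its value was seen, was called higher with overlapping groups (log2 difference 0.68, SE 0.22, limma adjusted p = 0.0492), but not by edgeR (adjusted p = 0.0763) and in only 6 of 19 alternative fits. Dag1, which encodes dystroglycan, the receptor of laminin, perlecan, agrin and pikachurin, fell from 4235 ± 337 to 3131 ± 145 normalised reads, a log2 difference of -0.43 (SE 0.08, limma adjusted p = 0.00861) without overlap of the groups. The integrin chains Itgb1 (log2 difference 0.29, SE 0.13, limma adjusted p = 0.132) and Itga7, the main laminin-binding alpha chain of muscle (log2 difference -0.36, SE 0.13, limma adjusted p = 0.0746), were not called. Both Dag1 and Itga7 are expressed in muscle fibres, and the skeletal muscle list was lower as given above. The part of muscle in the values of these 2 genes was not tested.

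Genes for the folding, modification and crosslinking of collagen were called higher in 10 of 15 tested cases and lower in 0, with a median of 0.63. Of all tested genes 11.6% were called in each direction. Most genes of this list serve all collagens and not collagen IV alone. The 10 include the targeted gene Loxl2, whose groups overlapped and which edgeR and DESeq2 did not call, as given above. Serpinh1, the collagen chaperone HSP47, rose from 2476 ± 899 to 6056 ± 949 normalised reads (SD, n = 4, log2 difference 1.34, SE 0.22, limma adjusted p = 0.00556). P3h1, a prolyl 3-hydroxylase, rose by a log2 difference of 0.83 (SE 0.14, limma adjusted p = 0.0056), and the lysyl oxidase gene Lox by a log2 difference of 2.03 (SE 0.35, limma adjusted p = 0.00631). Mia3, a cargo receptor for collagen export (log2 difference -0.28, SE 0.09, limma adjusted p = 0.0527), and Plod1, a lysyl hydroxylase (log2 difference 0.34, SE 0.11, limma adjusted p = 0.0514), were not called. Fibroblast markers were higher beside these genes, with 8 of 12 called higher, 0 lower and a median of 1.49. The groups did not overlap for 4 of these 12 markers, against 25.1% of all tested genes in either direction. Their summed value ranged from 52200 to 150000 in the control group and from 197000 to 310000 under the knockout label, and their part in the rise of these genes was not tested.

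Of the breakdown enzymes and their inhibitors, 9 of 12 tested were called higher and 0 lower, with a median of 1.60, and Mmp7 was not analysed here. Of all tested genes 11.6% were called in each direction. The groups did not overlap for 6 of the 12, against 25.1% of all tested genes in either direction. Mmp9, called higher by limma, was not called by edgeR (adjusted p = 0.109). Mmp12, the macrophage metalloelastase, rose from 15.0 ± 4.1 to 177 ± 123 normalised reads (SD, n = 4, log2 difference 3.19, SE 0.50, limma adjusted p = 0.00501). Mmp14, a membrane-bound metalloproteinase that activates the collagen IV-cleaving enzyme of Mmp2, rose from 1116 ± 729 to 4869 ± 1281 (log2 difference 2.28, SE 0.36, limma adjusted p = 0.00511), and Adamts4 by a log2 difference of 2.33 (SE 0.44, limma adjusted p = 0.00828). The inhibitors Timp1 (log2 difference 2.52, SE 0.54, limma adjusted p = 0.0121) and Timp2 (log2 difference 1.12, SE 0.25, limma adjusted p = 0.0138) were called higher too, Timp2 with overlapping groups. Timp3, an inhibitor bound to the matrix (log2 difference -0.04, SE 0.15, limma adjusted p = 0.883), and the protease Adamts1 (log2 difference -0.23, SE 0.19, limma adjusted p = 0.41) were not called. Macrophage markers were also higher, with 7 of 8 called higher, 0 lower, a median of 1.36 and a summed value of 1430 to 3300 in the controls against 4930 to 6860 under the knockout label, and their part was not tested.

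In a further list of 19 genes whose products associate with basement membranes or adjoin them, 5 were called higher and 0 lower, with a median of 0.52. Of all tested genes 23.2% were called, that is 11.6% of all tested genes higher and 11.6% lower. Col8a2, a network-forming collagen, rose from 191 ± 97.6 to 1092 ± 292 normalised reads (SD, n = 4, log2 difference 2.59, SE 0.30, limma adjusted p = 0.00397), Fbln1, which encodes fibulin-1, rose by a log2 difference of 1.67 (SE 0.22, limma adjusted p = 0.00397), and Matn2, which encodes matrilin-2, rose by a log2 difference of 1.60 (SE 0.40, limma adjusted p = 0.0198). The Matn2 groups overlapped, with control replicate 3 at 483 above knockout replicate 3 at 409. The other 2 called, named after their values were seen, were Col6a1 (log2 difference 1.52, SE 0.38, limma adjusted p = 0.0199) and Col8a1 (log2 difference 1.23, SE 0.40, limma adjusted p = 0.0496). The groups overlapped for Col8a1, edgeR did not call it (adjusted p = 0.0591), it was called in only 6 of 19 alternative fits, and its estimate ranged down to -0.29 over them.

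**Figure D5:**
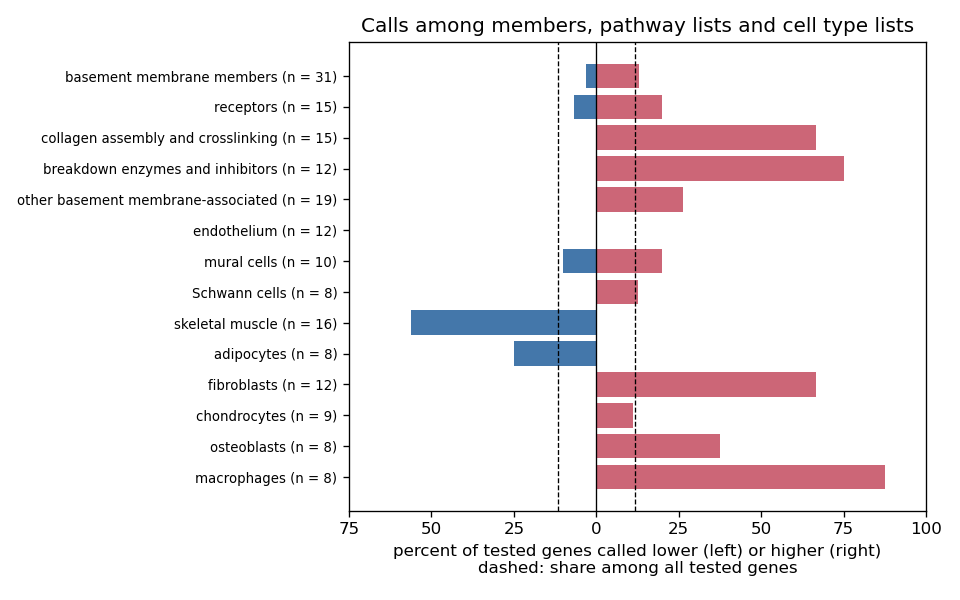
Percent of the tested genes of each list (y axis, with the number tested) that limma called lower (bars to the left) or higher (bars to the right) under the knockout label, with dashed lines at the 11.6% of all tested genes called in each direction. Of the 31 members 4 were higher and 1 lower, against 10 of 15 assembly genes, the targeted gene Loxl2 among them, and 9 of 12 breakdown genes higher.

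Markers of the cells that make or border basement membranes gave the following counts, where 11.6% of all tested genes were called higher and 11.6% lower. In whole joints, fewer cells of a type and less RNA per cell cannot be told apart. Of 12 endothelial markers, 0 were called by limma or edgeR and 0 had an unadjusted limma p under 0.05, with a median of -0.08 and single differences from -0.35 to 0.31, and their summed value was 6720 to 8430 in the controls against 5410 to 10600 under the knockout label. Of 10 markers of mural cells, the pericytes and smooth muscle cells around vessels, 2 were called higher and 1 lower. Pdgfrb (log2 difference 0.88, SE 0.16, limma adjusted p = 0.00767) and Cspg4 (log2 difference 0.74, SE 0.20, limma adjusted p = 0.0277) rose, and both are also expressed outside vessels, while Abcc9, which muscle fibres express too, fell by 0.49 on the log2 scale (SE 0.09, limma adjusted p = 0.00765). The Cspg4 groups overlapped, with control replicate 3 at 1110 above knockout replicate 1 at 974. Of 8 Schwann cell markers, 1 was called higher, Pmp22 (log2 difference 0.55, SE 0.13, limma adjusted p = 0.0162), and the median was -0.03. Of 8 fat cell markers, 2 were called lower, Pnpla2 and Lpl (log2 differences -0.80 and -0.69, limma adjusted p = 0.00714 and 0.0246), with a median of -0.16 over the list. Both are also expressed in muscle. The markers more restricted to fat were not called. Their estimates were above 0 for Plin1 (0.09, limma adjusted p = 0.918), Retn (0.36, 0.62) and Cfd (0.43, 0.358). Those of Adipoq (-0.08, limma adjusted p = 0.923), Cidec (-0.24, 0.739) and Lep (-1.32, 0.146) were below 0. The summed value of the list, made up mostly of Lpl and Pnpla2, was 14000 to 18700 in the controls against 8310 to 12000 under the knockout label. Of 9 chondrocyte markers 1 was called, Hapln1, higher with overlapping groups (log2 difference 1.28, SE 0.30, limma adjusted p = 0.0165). Some of these markers were scarce, with Matn3 at 0.0 and Cnmd at 3.7 normalised reads in control replicate 3. The list had a median of 0.74 and a summed value of 3640 to 9280 in the controls against 9470 to 14300 under the knockout label. Comp was the largest part of that sum in every library. It was not called, and its groups overlapped (log2 difference 0.91, limma adjusted p = 0.0501). Col2a1 was not called either and was highest in control replicate 1, at 2721 (log2 difference 0.79, limma adjusted p = 0.441). Of 8 osteoblast markers 3 were called higher, Alpl, Ibsp and Sp7, with a median of 1.5, of which edgeR did not call Ibsp (adjusted p = 0.0879) or Sp7 (adjusted p = 0.10). The part of these cell types in the members' values was not tested.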

How the data were processed

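Poly-A RNA of 8 mouse knee joints was sequenced, 4 libraries labelled control and 4 labelled knockout, grouped by their titles. Per the labels and the submitters' processing notes, the authors aligned reads to mm10 with HISAT2, counted them per gene with featureCounts and normalised them with DESeq2. Versions, the annotation, the filter values and the use of strand are not given in the sources used here. The deposited values are a normalised signal, that is gene read counts divided by a size factor for each library. Each column consisted of whole multiples of 1 step, the value of a single read (100% of values, tolerance 0.001), and the size factors recomputed from these whole reads equalled the inverse of that step. For 2 libraries, control 2 (step 1.009) and knockout 1 (0.997), the step is so near 1 that low values alone cannot show it, and the reads of these 2 rest on the recomputed size factors.

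The test covered the 14949 of 20681 genes that reached a value of 10 in 4 or more libraries. Values were compared as log2(value + 1) with limma 3.58.1 (trend) with 1 term for group and Benjamini-Hochberg adjustment over all tested genes, with calls at an adjusted p under 0.05. edgeR 4.0.16, which called 3324 genes, and DESeq2 1.42.0 on the whole reads were alternatives. The other alternatives were pseudocounts, filters, scalings, a muscle score as covariate, a replicate block and leaving out each library. Single values and ratios had exact two-sided permutation tests over 70 assignments, for which the smallest p is 0.0286. The scripts were tested on simulated counts. Of the table's names 20510 matched GENCODE M21 (GRCm38, the build of mm10), which gave coordinates and exon lengths. The members, the lists and the naming rule were chosen with earlier results of these data known. All members were described by role, those called or with a level of at least 100 in 1 group with the value of each library. From each other list, at most 3 called genes of smallest p were named, and for receptors, assembly and breakdown also 2 genes of highest mean that were not called. Unc5b, Col6a1, Col8a1, Mmp9, Timp1, Timp2, most epithelial markers and the fat cell markers not called were named outside this rule, after their values were seen.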

Additional observations from a re-analysis of the deposited data

Results flagged for a closer look

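In 3 of the 62 member groups and 24 ratio groups examined, 1 of 4 libraries lay far from the other 3, with a gap to its neighbour, as a share of the range, above Dixon's 95% critical value, which chance gives in about 1 group of 20. Lamb1 in control replicate 3 was one of them, where the gap was 0.856 of the range of the log2 values. Hspg2 in knockout replicate 1 was below the rest of its group, with a gap of 0.886. The ratio of Lama5 to Lama4 was low in control replicate 3, with a gap of 0.837. The causes were not tested.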

How the results depend on the processing

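Smoc2 and Lama3 were called in 18 of 19 alternative fits, Agrn in 17, Egflam in 12 and Lamb1 in 8, and pseudocounts of 0.1 and 5 and TMM scaling changed no member's call. The number of members called higher (4) became 9 and the number lower (1) became 0 when scaled without muscle and top genes, 8 were higher with DESeq2, and both were 0 with the muscle score as covariate. With that score, of which 85.9% of the variance lay between the groups, 0 of all genes were called. Leaving out 1 library gave 3 to 8 members higher, 0 to 2 lower, 1 to 3 of 12 ratios separate, and 1751 to 3841 of all genes called (main 3461), with 1887 without control replicate 2, 2194 without control replicate 4 and 1751 without knockout replicate 4. Same-numbered libraries did not deviate together for replicates 2, 3 and 4 (correlations -0.12, -0.23 and -0.06), whose control libraries correlated better with another number than with their own. For replicate 1 the correlation was 0.21, above those of control replicate 1 with the other numbers (-0.16 to 0.03). A replicate block gave 3 members higher, 0 lower and 2018 of all genes. Under it Agrn (limma adjusted p = 0.0524), Egflam (0.0598) and Lamb1 (0.0874) were not called and Ntn4 was (0.0409).

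Of the members' signs, that of Lamb1 was the one among called members to turn, to -0.16 with the muscle score. With that score the signs of members not called also turned, to -0.30 for Col4a1, -0.49 for Col4a2, 0.49 for Col4a3, 0.18 for Col7a1, -0.25 for Col15a1, -0.44 for Col18a1, 0.54 for Lama5, -0.39 for Nid1, -0.19 for Hspg2, -0.14 for Smoc1, -0.87 for Ntn4, 0.01 for Fras1, -0.20 for Frem1, 0.21 for Frem2 and -0.82 for Pxdn. Quantile normalisation gave -0.02 for Col4a4, -0.24 for Col4a5, 0.01 for Lama2, 0.11 for Lamb2 and 0.14 for Lamc1. Scaling without muscle and top genes gave 0.15 for Lama2, 0.15 for Lamc1, 0.06 for Lamc3 and 0.04 for Frem2. TMM gave 0.01 for Lama2, and TMM, edgeR and DESeq2 gave 0.00 for Lamc1. Leaving out 1 library at a time gave ranges across 0, from -0.05 to 0.07 for Col4a5 (3 fits turned), -0.04 to 0.60 for Col4a6 (1), -0.16 to 0.11 for Lama2 (4), -0.09 to 0.09 for Lamc1 (4), -0.40 to 0.13 for Lamc3 (4), -0.61 to 0.06 for Npnt (1) and -0.39 to 0.14 for Frem2 (3). The causes were not tested. Members under about 30 reads a library, such as Col4a6, Lamc3 and Frem1, had SEs of 0.36 to 0.51, which limits what could be detected.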
